A study of Daphnia magna with 40 samples.

Results

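The 150 probes described here were those whose signal differed most between adult Daphnia magna that had received the same treatment. They were chosen from 6268 probes whose spots exceeded background clearly on each of the 20 adult arrays, out of 14338 probes on the array. The signal used throughout is the log2 processed intensity of a probe minus the 75th percentile of its array, called the scaled log2 signal, on which 1 unit is a doubling. The treatment mean of each probe was subtracted on the 12 adult arrays of FV10, NP20 and NP60, and the 150 probes with the largest remaining SD were kept. That SD, and everything else computed from the same 12 arrays, is therefore a description of how the probes were chosen. The probes are known by ID only, because no gene is paired with an ID in the files, and the 150 probes carried 150 different design names.

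The series profiled whole animals of clone F, a laboratory line kept by parthenogenesis, on 40 one-colour arrays, 4 in each of 10 groups. Each stage had animals exposed to fluovoxamine (fluvoxamine, spelled as labelled) at 10 µg/L (FV10), to fluoxetine at 40 µg/L (FX40), to nonylphenol at 20 µg/L (NP20) or 60 µg/L (NP60), or to acetone alone. Acetone was the carrier of every treatment, at 0.1 ml/L. The series text names 80 ppb of fluoxetine and 30 ppb of fluovoxamine instead, so the labelled doses serve here as names only. Adults were egg-bearing females aged 8 to 9 days at the start, kept under exposure for 3 broods, which took 10 to 14 days, and frozen right after the fourth clutch was laid and washed out of the brood pouch. Juveniles, titled neonates in the labels, were under 1 day old at the start and exposed for 3 days, and 20 animals from each of 4 vessels were pooled. The adult labels give neither the number of females in a sample nor how replicates were kept, so p-values measure only how far these samples spread, and that spread may be technical. In bulk RNA of whole animals, less tissue of a kind and less RNA per cell cannot be told apart.

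Daphnids of a clone share their genotype, and females lay parthenogenetic eggs into a brood pouch between moults. Moulting, the laying down of a new cuticle, the filling of the ovary with yolk and feeding follow each other in a repeating cycle, and many transcripts are known to follow that cycle in crustaceans. Both fluoxetine and fluvoxamine inhibit serotonin reuptake. Nonylphenol arises when surfactants degrade and has weak oestrogen-like activity in vertebrates.

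The arrays differed in brightness. The 75th percentile of the processed signal lay between 76.9 and 484.6 intensity units in adults and between 204.7 and 773.6 in juveniles, and between 54.4% and 86.8% of spots on an adult array were well above background. The arrays lay on 7 slides, each with several groups. Acetone G stood apart among adults with 1379 spots that the scanner software marked as outliers, among them spots of 44 of the 150 probes, against at most 5 of them on any other adult array.

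The 150 probes had within-treatment SDs between 1.61 and 3.77 on the 12 arrays that chose them, with a median of 2.02, beside a median of 0.418 over the 6268 probes. The border was not sharp. DM01998P1, the last probe inside, had an SD of 1.613, and DM09137P3, the first outside, had 1.603. Over the 20 adult arrays a member spanned 7.56 log2 units in the median and at most 11.37, where the median probe of the 6268 spanned 1.95. The members were also brighter, with a median adult level of 1.88 against 0.15 on the scaled log2 scale, and 118 of the 150 lay above the median level of the 6268. Saturation capped some of the highest values, because 21 members were saturated on at least 1 adult array and 0 on all of them.

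The gap between spots was measured where a probe was printed at separate positions. Such a gap holds any constant offset between the positions as well as spot-level noise. Of the 150, 5 had 2 spots each, and the median gap between their spots on an adult array lay between 0.0711 (DM02085P1) and 1.07 (DM00469P1) log2 units. The median over the 5 was 0.576, against 0.221 over the 561 probes of the 6268 that were spotted 2 times. The spots of the members were scattered over the slide area, with 27.1%, 27.1%, 21.9% and 23.9% in its 4 quadrants. IDs beginning with DM06 or DM07 made up 36.7% of the members, beside 13.3% of the 6268 probes. What those ID blocks stand for was not analysed here.

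The members did not all follow a common course. Clustering their deviations from the treatment means over the 12 arrays (average linkage on 1 minus the correlation, cut at 0.5) placed 133 of them in 4 co-variation groups of at least 10 probes, numbered by size. Group 1 had 63 probes, group 2 had 37, group 3 had 23 and group 4 had 10. The other 17 probes fell into smaller clusters and are called ungrouped. The median correlation between 2 probes of a group was 0.75, 0.72, 0.83 and 0.83 in groups 1 to 4 on those 12 arrays, against 0.04 between any 2 members and 0.03 between any 2 of the 6268 probes. These correlations follow from the clustering and are given as a description.

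A few adult arrays carried much of the spread. NP20 B was the array farthest from its treatment mean for 80 of the 150 probes, NP60 C for 24 and NP20 C for 18. NP20 B held 32.8% of the members' summed squared deviations, and NP60 C held 15.2%. Over the other probes of the 6268 the same arrays held 16.3% and 9.41%. The brightness of NP20 B was not extreme, with a 75th percentile of 8.41 on the log2 scale inside the adult range of 6.27 to 8.92. Over the members, its median correlation with the other adult arrays was -0.06, followed by 0.25 for NP20 G, 0.35 for NP60 C and 0.39 for NP20 E, while the other 16 arrays had 0.65 to 0.86. Over the 6268 probes without the members, NP20 B reached 0.912, and the lowest array was FX40 B at 0.882. When NP20 B was left out of the choice, 92 of the 150 were chosen again.

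Group 1 was low on NP20 B and high on several single arrays of other treatments. Its mean signal was 1.97, 3.16, 3.42 and 2.94 on FV10 A, B, E and H, 0.30, 2.04, 2.59 and 3.45 on FX40 B, C, F and G, and -1.98, 3.15, 4.51 and 3.87 on NP20 B, C, E and G. On NP60 A, C, F and H it was 2.17, 4.29, 2.68 and 2.35, and on acetone B, E, F and G it was 2.56, 2.41, 1.84 and 4.52. The lowest arrays were thus NP20 B and FX40 B and the highest acetone G, NP20 E and NP60 C, and the treatments overlapped. NP20 B gave the lowest adult value for 45 of the 63 probes.

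DM06982P2 of group 1 had the largest SD of all members. Its signal was -0.15, 3.15, 5.78 and 2.82 on FV10 A, B, E and H, -2.69, -1.22, 1.08 and 3.78 on FX40 B, C, F and G, and -3.26, 4.07, 7.84 and 7.27 on NP20 B, C, E and G. On NP60 A, C, F and H it was -0.60, 7.04, 1.97 and 1.22, and on acetone B, E, F and G it was 2.22, 1.74, -1.77 and 7.35. High and low arrays occurred within 4 of the 5 treatments, acetone among them, and FV10 spanned the least. DM07220P3, the second by SD, followed it, with 6.54, 6.62, 6.24 and 5.31 on NP20 E, NP20 G, NP60 C and acetone G, and -3.56 and -4.29 on NP20 B and FX40 B. DM05046P1 and DM06814P3 also belonged to group 1 and had the third and sixth largest SDs. DM05046P1 read 7.80 on NP20 E and -3.55 on NP20 B, and DM06814P3 read 5.61 and -3.53 there. The members closest to the mean of group 1 were DM06604P3 and DM07870P3, at 6.59 and 8.53 on NP20 E and -0.85 and -1.53 on NP20 B.

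Group 2 was low on the arrays where group 1 was highest, and also on NP20 B, where group 1 was lowest. Its mean signal was 3.26, 3.49, 1.94 and 3.23 on FV10 A, B, E and H, 3.37, 4.11, 4.05 and 3.23 on FX40 B, C, F and G, and 0.83, 3.60, 0.19 and -1.17 on NP20 B, C, E and G. On NP60 A, C, F and H it was 3.78, -0.37, 3.49 and 4.25, and on acetone B, E, F and G it was 3.36, 3.70, 3.41 and 1.49. NP20 G, NP60 C, NP20 E, NP20 B and acetone G were the 5 lowest, and most other arrays stood near 3.5.

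DM06634P3 of group 2 had the fourth largest SD. It read 6.89, 7.17, 3.83 and 6.36 on FV10 A, B, E and H, 7.22, 7.42, 7.80 and 6.53 on FX40 B, C, F and G, and 5.49, 6.27, -0.35 and -0.01 on NP20 B, C, E and G. On NP60 A, C, F and H it read 7.61, 0.15, 7.06 and 7.66, and on acetone B, E, F and G it read 6.75, 7.52, 7.68 and 1.28. The probe stood at 5.49 or above on 15 adult arrays, of which 1 FX40 array was saturated, and at 1.28 or below on 4 arrays of 3 treatments, with FV10 E between them. DM06550P3, the fifth by SD, read -1.57, -1.52, -1.07 and 1.11 on NP20 E, NP20 G, NP60 C and acetone G and 5.80 to 6.94 on the other 3 acetone arrays. DM06652P1 and DM10419P2 were closest to the mean of group 2. DM06652P1 read 2.04 on NP20 G, 2.63 on NP60 C and 4.83 on acetone G, and 7.87, 8.13 and 7.95 on acetone B, E and F. DM10419P2 read -1.61 on NP20 G and -2.10 on FX40 G, an array on which group 2 as a whole was not low.

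The difference between the means of groups 1 and 2 put the adult arrays in order. It was 5.04 on NP20 G, 4.65 on NP60 C, 4.32 on NP20 E and 3.03 on acetone G, then 1.48 on FV10 E, and lay between -3.07 (FX40 B) and 0.22 (FX40 G) on the other 15. On acetone G it was 3.37 when probes with outlier marks there were left out. These 4 high arrays came from slides 3, 2, 5 and 4 and from 3 treatments. Over the 12 arrays of the choice the deviations of both group means had r = -0.31 (rho -0.45), or -0.79 without NP20 B. On NP20 B group 1 deviated by -4.37 from its treatment mean and group 2 by -0.03. Over all 20 adult arrays r was -0.35 (rho -0.48). On the 8 adult FX40 and acetone arrays, whose spread did not enter the choice, the deviations of the group means had r = -0.55 (Spearman rho -0.52, n = 8 arrays). That value rested on single arrays, since it was 0.07 without acetone G and -0.94 without FX40 B. Without both, the arrays farthest from the median of group 1, it was -0.82. There the treatment means were still those of all 8 arrays, whereas the values without 1 array had them recomputed. The -0.82 is therefore not directly comparable with those values.

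The means of groups 1 and 2 also ran opposite to each other among juveniles, none of which entered the choice. The deviations of the 2 group means from their treatment means had r = -0.75 (rho -0.82) over 20 juvenile arrays. It lay between -0.82 and -0.68 when each array was left out in turn. Without NP20 C and NP60 D, the arrays farthest from the median of group 1, it was -0.81, with treatment means still those of all 20 arrays. The arrays share 7 slides and a common scaling, and r is a description. Group 1 minus group 2 was lowest on NP20 C (-3.67), NP60 D (-3.24) and FX40 B (-3.16) and highest on FV10 C (1.72), NP60 B (1.44) and acetone B (1.09). The juvenile range was narrower than the adult range of -3.07 to 5.04. Group 1 averaged 3.35, 3.63, 4.09 and 2.17 on juvenile FV10 A to D, 3.79, 1.44, 3.05 and 2.18 on FX40 A to D, 3.87, 3.25, 0.90 and 3.14 on NP20 A to D, 2.77, 3.98, 2.20 and 1.23 on NP60 A to D, and 3.39, 4.02, 3.81 and 2.76 on acetone A to D. Group 2 averaged 4.45, 4.09, 2.37 and 4.60, then 3.35, 4.60, 4.36 and 4.40, then 3.41, 4.35, 4.57 and 4.54, then 3.82, 2.54, 4.74 and 4.46, and 3.62, 2.93, 3.52 and 4.25 on the same arrays. The 3 lowest arrays of group 2, FV10 C, NP60 B and acetone B, were the 3 highest of group 1. DM06982P2 read 5.07, 5.51, 6.58 and 2.60 on juvenile FV10 A to D, 6.04, -1.09, 5.06 and 2.70 on FX40 A to D, and 6.45, 5.27, -2.77 and 5.45 on NP20 A to D. On NP60 A to D it read 4.37, 6.04, 3.41 and 0.11, and on acetone A to D it read 5.50, 6.92, 6.64 and 5.16. Its lowest juvenile arrays, NP20 C, FX40 B and NP60 D, were the lowest for group 1 as a whole.

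Group 3 was set by NP20 B. Its mean there was 6.34, and all 23 probes had their highest adult value on that array, while the other 19 adult arrays lay between -0.74 and 0.71. DM02810P1, the probe closest to the group mean, read 7.22 on NP20 B and 0.35, 1.13 and 1.76 on NP20 C, E and G, against 0.53, 0.30, 0.85 and 0.96 on acetone B, E, F and G. It was saturated on NP20 B, so the gap is a lower bound there. DM10454P1, the next closest, read 4.57 on NP20 B and -2.75, -0.55 and -0.52 on the other 3 NP20 arrays. Without NP20 B the median correlation within group 3 was 0.17 on the remaining 11 arrays, and the median SD of its probes was 0.945. Group 1 was affected too, with 0.25 and 1.28, whereas group 2 kept 0.85 and 1.93 and group 4 kept 0.85 and 2.02. What set NP20 B apart was not tested.

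Among juveniles group 3 did vary together, on arrays that had no part in its definition. Its mean was above 1 on 4 of 20 juvenile arrays, at 2.84 on NP60 B, 2.13 on NP20 A, 1.85 on NP20 D and 1.27 on FV10 C, and between -0.36 and 0.70 on the others. DM02810P1 read 3.50 on juvenile NP60 B, 2.02 on NP20 A, 1.90 on NP20 D and 1.68 on FV10 C. It read -1.01 to -0.58 on the other 3 NP60 arrays and 1.15 on acetone D, where the other acetone arrays stood at -0.33 to -0.24. The median correlation between probes of group 3 was 0.54 over the juvenile arrays, against -0.02 on the 8 adult FX40 and acetone arrays. The value on the 8 arrays was 0.81 with slide as a block, whose slide effects were estimated over all 20 adult arrays, NP20 B among them.

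The relation of group 3 to group 1 turned on NP20 B. On the 12 arrays the correlation of their mean deviations was -0.82, and without NP20 B it was 0.66 (n = 11). It was 0.89 on the 8 adult FX40 and acetone arrays and 0.64 on the 20 juvenile arrays. Groups 2 and 3 had -0.86 on the 11 arrays, -0.46 on the 8 and -0.62 in juveniles. The means of groups 1 and 3 thus tended to be high on the same arrays in these 3 sets, from which NP20 B was absent, and that of group 2 low there. The probes of group 3 hardly moved together on the 11 and the 8 arrays, with median correlations of 0.17 and -0.02. Its mean ran only from -0.73 to 0.00 on the 8 arrays.

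Group 4 varied among adults of every treatment and hardly among juveniles. Its mean signal was -0.38, 2.67, -0.37 and -0.79 on FV10 A, B, E and H, -2.86, 3.67, 3.86 and 4.63 on FX40 B, C, F and G, and 3.69, 3.49, 1.23 and 5.27 on NP20 B, C, E and G. On NP60 A, C, F and H it was 1.30, 4.90, 0.36 and 3.30, and on acetone B, E, F and G it was 3.30, 3.34, 0.50 and 3.16. On acetone G 8 of the 10 probes had outlier marks, and the unmarked ones averaged 2.17. All 20 juvenile arrays lay between 4.79 and 5.76, and 18 of the 20 adult arrays lay below the lowest of them. FX40 B was the lowest adult, and acetone F was low among acetone arrays. DM06878P3, closest to the group mean, read -2.31, 2.91, 3.89 and 5.01 on adult FX40 B, C, F and G, against 3.14, 3.35, -1.10 and 2.16 on acetone B, E, F and G. DM10472P3, the next closest, read -2.27, 1.70, 2.97 and 3.35 there, against 2.15, 2.12, -0.30 and -0.18. For both probes the lowest FX40 array was B, and acetone and FX40 overlapped.

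The excess spread of the members was also present on arrays that had not chosen them. On the 8 adult FX40 and acetone arrays their median within-treatment SD was 1.21, against 0.484 over the 6268 probes. There 136 of 150 lay above the median of the 6268, 94 were among its most variable 10% and 41 (27.3%) would again have ranked among the 150 most variable. On the 20 juvenile arrays the median SD was 1.08 against 0.459, with 138 above the median, 94 in that top 10% and 60 (40.0%) among the 150 most variable. The detection filter and the brightness of the members apply to these arrays too: 147 of the 150 (98.0%) were well above background on all juvenile arrays, against 91.2% of the 6268. By single treatment the members' median SD was 1.05 in FX40 and 1.18 in acetone adults, and 0.98, 0.707, 0.955, 1.29 and 0.714 in FV10, FX40, NP20, NP60 and acetone juveniles. In each of these 7 groups it exceeded the median of the 6268 probes, which ran from 0.307 to 0.533. In the 3 adult groups that chose the members it was 0.951 (FV10), 2.87 (NP20) and 1.54 (NP60), as a description.

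The 4 groups differed in where their spread returned. Group 4 had a median SD of 2.86 on the 8 other adult arrays, with 10 of 10 probes in that top 10%, and 0.520 in juveniles, with 1 in that top 10%. Group 3 had 0.586 on the 8 arrays, with 6 of 23 in that top 10%, and 1.17 in juveniles, with 17 there. Group 1 had 1.31 and 1.48, with 46 and 42 of 63 in that top 10%, and group 2 had 1.04 and 0.993, with 23 and 25 of 37. The median correlation between probes of a group was 0.75 on the 8 arrays and 0.34 in juveniles for group 1. It was 0.36 and 0.55 for group 2, and 0.88 and 0.26 for group 4. It fell along with the SD in group 4. In group 1 it fell while the SD rose slightly, and in group 2 it rose while the SD was level. The correlation of group 4 on the 8 arrays was 0.61 without FX40 B. All 6268 probes had 0.05 and 0.02.

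A small share of other probes followed the 4 groups on the 12 arrays. Of 6118, 110, 54, 100 and 22 correlated above 0.8 with the mean of groups 1 to 4. These were 1.80%, 0.88%, 1.63% and 0.36%. Below -0.8 there were 103, 33, 170 and 15 (1.68%, 0.54%, 2.78% and 0.25%). On the 8 other adult arrays the probes above 0.8 for group 4 had a median correlation of 0.81 with its mean, positive for 22 of 22. The medians were 0.45, 0.49 and 0.12 for groups 1, 2 and 3, positive for 74 of 110, 39 of 54 and 55 of 100. In juveniles they were 0.11, 0.43, 0.14 and 0.24 for groups 1 to 4, positive for 64, 39, 60 and 18 probes. Over all 6118 other probes the medians were -0.22, 0.02, -0.20 and -0.26 on the 8 arrays and -0.09, 0.11, -0.10 and 0.08 in juveniles. The followers of each group thus lay above these in both sets, by the widest margin for group 4 on the 8 arrays. FX40 B, where the mean of group 4 deviated by -5.19 from its treatment mean, is among those 8. The followers were not examined without it.

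Among ungrouped members DM09934P1 had a switch-like range. It read 6.68, 0.55, 0.54 and 0.21 on adult FV10 A, B, E and H, 6.35, 0.45, -1.25 and 1.09 on FX40 B, C, F and G, and 1.69, 5.73, 1.87 and -0.65 on NP20 B, C, E and G. On NP60 A, C, F and H it read -0.22, -0.94, -0.92 and 2.14, and on acetone B, E, F and G it read 5.07, 5.68, -3.18 and 0.42. High arrays occurred in 4 of the 5 adult treatments, and 2 of them were acetone arrays. DM02665P1, also ungrouped, read 4.77 on NP60 C and 3.96 on NP20 E and lay between -2.47 and -0.13 on the other 18 adult arrays.

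Whether the members responded to treatment was tested only on arrays outside the choice, with limma over all probes that exceeded background clearly on 4 or more of the fitted arrays and Benjamini-Hochberg adjustment over all of them. In adults given FX40, 0 of the 150 members passed an adjusted p of 0.05 against acetone (n = 4 each), as did 0.0% of the 10886 probes tested. At an unadjusted p under 0.05 there were 15 members and 1353 probes. The lowest adjusted p of a member was 0.28. Of the 6268 probes 3246 were lower in FX40 and 3022 higher. Group 1 was lower for 52 of 63 probes, with a median log2 difference of -0.92. Group 2 was higher for 32 of 37, with a median of 0.53, but no probe of either group passed the test. The direction did not hold within slides. On slide 3 (FX40 G against acetone F) the median of group 1 was 1.82, and on slide 4 (FX40 F against acetone G) it was -1.98. With normexp background correction 30 members (20.0%) passed, 21 higher and 9 lower. So did 23.9% of the 6268 probes and 4813 (44.2%) of all 10886. The median difference of all probes was then -0.73, where it was 0.06 without that correction.

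For adult FV10, NP20 and NP60 the differences from acetone are descriptions. Members as a whole were level, with median differences of 0.00, -0.19 and -0.03. Of the 6268 probes 2773 were higher and 3495 lower in NP20, and 3193 were higher and 3075 lower in FV10. Group 3 was higher in NP20 for 23 of 23 probes with a median of 1.96, a mean drawn up by NP20 B, since NP20 C, E and G averaged -0.59, 0.46 and 0.71. Group 2 was lower in NP20 for 34 of 37 probes with a median of -2.08, and NP20 C, at 3.60, lay inside the acetone range. Group 4 was lower in FV10 for 9 of 10 probes with a median of -2.12, and FV10 B, at 2.67, lay inside the acetone range.

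In juveniles, 1 member passed for FV10 against acetone, 0.667% of the 150, and it was higher. This stood beside 7.88% of 12880 probes tested (5.22% higher) and 9.68% of the 6259 of them that belonged to the 6268. The members' share was thus below the background in this fit, and their median SE was 0.713 against 0.333 for those 6259. The background itself rested on single arrays, as 3 probes passed without FV10 A and 2 without FV10 B. The 1 member was among them, so the members' share then lay above the background, as it did with normexp and with slide as a block, where 1 probe passed in all. The member was DM09934P1, which read 8.28, 7.94, 4.34 and 5.34 on FV10 A to D, against -2.08, -0.04, -0.58 and -0.67 on acetone A to D. The 4 FV10 arrays were above all other juvenile arrays, of which FX40 D was the highest at 1.56. Its log2 change was 7.32 (SE 0.82, adjusted p = 0.000642 in limma). Without FV10 C the count of members was 13 (8.67%), 9 higher and 4 lower, against 22.9% of the 6259 and 19.2% of all probes tested, and without FV10 D it was 3 (2.0%), against 12.2% and 9.86%.

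No member passed for juvenile FX40, NP20 or NP60 against acetone, with 0 of 150 each. At an unadjusted p under 0.05 there were 13, 15 and 12. Of the 12880 probes 0.00776%, 0.0% and 0.0% passed, or 1, 0 and 0 probes, and 1089, 765 and 699 were under 0.05 without adjustment. Group 1 leaned lower in each, for 50, 51 and 52 of 63 probes with medians of -0.83, -0.71 and -0.88, and group 2 leaned higher for 32, 30 and 27 of 37. These comparisons share their 4 acetone arrays, on which group 1 averaged 3.49 ± 0.56 (SD, n = 4), and they are not separate evidence. Group 1 averaged 2.62 ± 1.02 in FX40, 2.79 ± 1.30 in NP20 and 2.54 ± 1.15 in NP60 juveniles (SD, n = 4 each), so the groups overlapped. The difference between the FX40 effect in adults and in juveniles passed for 0 members and 0.0687% of 13095 probes, with 13 members and 1668 probes under 0.05 without adjustment.

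Most calls of members came from the comparison of stages. Adult acetone was set against juvenile acetone in a fit of the 28 arrays outside the choice. Of the 150 members 30 (20.0%) passed, 9 higher and 21 lower in adults, beside 24.6% of 13095 probes and 32.2% of the 6268. Split by direction, 9 of 150 members were higher, against 22.0% of the 6268 and 14.4% of all probes, and 14.0% were lower, against 10.2% of both. The members' median difference was -0.56, where the 6268 probes had 0.22. In adults 100 of the 150 were lower, beside 2544 of the 6268. The members' median SE was 0.870 against 0.355. The fit gave each probe a common spread over its 28 arrays, so its SEs and p-values do not allow for stages that differ in spread. The choice of the 6268 probes asked for signal above background on every adult array and made no such demand of juvenile arrays. With normexp correction 19 members passed, 2 higher and 17 lower. That was 12.7% of the members, against 8.04% of the 6268 and 4.38% of all probes, so whether the members' share lay below or above the background depended on the background correction.

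Group 4 had the largest shift of the 4 groups between stages. Its mean was 3.30, 3.34, 0.50 and 3.16 on adult acetone B, E, F and G, against 4.83, 5.31, 5.34 and 5.16 on juvenile acetone A to D, and the groups did not overlap. On adult acetone G 8 of the 10 probes had outlier marks, and the unmarked ones averaged 2.17. All 10 probes were lower in adults, 5 of them past the threshold, with a median log2 difference of -2.99. Within slides 1, 4 and 7, which held an acetone array of each stage, its median was -1.89, -2.40 and -1.53. The slide 4 value rests on adult acetone G with its marked probes. DM06878P3 differed by -3.60 (SE 1.01, limma adjusted p = 0.0109) and DM10472P3 by -3.15 (SE 0.76, adjusted p = 0.0035). Their SDs were 2.06 and 1.37 in adult acetone, against 0.27 and 0.48 in juvenile acetone. The common spread of the fit does not allow for that, so these SEs and p-values are approximate. Groups 1, 2 and 3 had medians of -0.80, -0.56 and -0.23, with 8 of 63 (12.7%), 5 of 37 (13.5%) and 8 of 23 (34.8%) past the threshold. The ungrouped probes had 1.07 with 4 of 17 (23.5%).

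The largest stage differences among members were as follows. DM11927P1 of group 1 read 3.39, 3.15, 3.18 and 3.88 on adult acetone B, E, F and G, against -2.91, -0.74, -2.68 and -1.82 on juvenile acetone A to D. The groups were far apart, with a log2 difference of 5.44 (SE 0.45, limma adjusted p = 4.55e-09), and only on adult NP20 B and NP20 G did the probe read below 1, at -1.66 and -1.13. DM04369P3, ungrouped, read 2.77, 4.55, 2.61 and 5.89 in adult acetone, against -0.85, 0.05, 0.09 and 1.37 in juvenile acetone, a difference of 3.79 (SE 1.26, adjusted p = 0.0302). This call was lost under several settings, for example with slide as a block (adjusted p = 0.0598). DM05031P2 of group 2 read -1.98, -2.40, -2.57 and 2.26 in adult acetone, against 4.30, 4.25, 3.92 and 3.65 in juvenile acetone, a difference of -5.20 (SE 0.80, adjusted p = 4.5e-05). Acetone G again stood apart from the other 3 adults, still below the juveniles. The SD of DM05031P2 was 2.30 in adult acetone and 0.30 in juvenile acetone. The fit gave it a common spread, so its SE and p-value are approximate. DM02665P1, ungrouped, read -0.53, -2.47, -0.14 and -0.81 against 3.55, 3.46, 3.48 and 3.25, a difference of -4.43 (SE 0.44, adjusted p = 9.76e-08). Its high adult arrays NP60 C and NP20 E, at 4.77 and 3.96, were the only adult arrays at or above the juvenile acetone levels.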

How the data were processed

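Total RNA of whole animals was labelled with Cy3 and hybridised, per the labels' protocols. Agilent Feature Extraction 10.7.3.1 read the spots, per the file headers, and it left a deposited processed intensity per spot, linear and background-subtracted. A deposited series table gives log2 values made by the authors. Per array they correlated at 0.964 to 1 in adults and 0.995 to 1 in juveniles with log2 signals that had been quantile-normalized and centred per probe within a stage. Column medians ran from -0.0996 to 0.107, and no source used here gives the other steps behind that table.

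From the scanner intensities, log2 of the processed signal was set against the 75th percentile of its array and averaged per probe. Spots marked as outliers were kept, as the rule for the members states no removal, and they were left out as an alternative. SDs were pooled within treatments. Tests used limma 3.58.1 in R 4.3.3 on probes clearly above background on 4 or more fitted arrays, at a Benjamini-Hochberg adjusted p of 0.05. They were tested on simulated data. Clustering used scipy 1.17.1. The adult FX40 test used only its 8 arrays and the stage tests 28, so that the 12 arrays that chose the members did not set the spread. The juvenile tests shared a fit of 20 arrays. The number of arrays limits the precision.

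Members, lists and tests were chosen with earlier results of these data known. Named probes were the 6 largest SDs, the probes at the threshold, the 2 most like each co-variation group's mean over the 12 arrays, at most 2 higher and 2 lower called members per test, and the duplicate-spotted members with the smallest and largest gap. The RefSeq gene table of assembly ASM2063170v1.1 held 0 of the 14338 IDs. Replicate letters were checked for pairing by the correlation of same-letter deviations: adult FX40 and acetone shared B, F and G, with r = 0.30, 0.23 and 0.35, and juvenile pairs had a median of -0.03 (-0.20 to 0.21). The alternatives were normexp with an offset of 50 (on median spot signals, since the files hold no mean), quantile normalization, the deposited table, no filter on dim probes, slide or replicate letter as a block, other sets of arrays and each array left out in turn.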

Additional observations from a re-analysis of the deposited data

Results flagged for a closer look

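Each treatment's 4 arrays were checked for a single array far from the other 3, by Dixon's 95% criterion for the gap of 1 value among 4, for the means of the 4 co-variation groups and for each named probe. Of 270 such sets 43 stood out, where chance alone picks about 1 in 20 of unselected sets. The sets are not independent, because probes of a group move together. They include adult FV10, NP20 and NP60, whose spread within treatments chose the members. The count is therefore a description and no measure against chance. All values are scaled log2 signals.

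Adult NP60 C stood out most often. It was low in the mean of group 2 (-0.37, other NP60 arrays 3.49 to 4.25) and in the group 2 probes DM02085P1 (-1.88), DM06550P3 (-1.07), DM06634P3 (0.15), DM06652P1 (2.63) and DM10419P2 (-1.02). It was high in DM02665P1 (4.77), DM05046P1 (6.84), DM07220P3 (6.24) and DM09137P3 (2.96), the probe just outside the threshold. Adult acetone G stood out in 6 sets, 5 of them sets in which NP60 C did so in the same direction. It was low in the mean of group 2 (1.49, other acetone arrays 3.36 to 3.70), DM06634P3 (1.28) and DM06652P1 (4.83), and high in DM05046P1 (7.06) and DM09137P3 (1.32). The sixth was DM05031P2, a group 2 probe that was high on acetone G (2.26).

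Other adult arrays stood out singly. FV10 E was low in the mean of group 2 (1.94). FV10 B was high in the mean of group 4 (2.67) and in DM10472P3 (0.89), and FV10 A in DM09934P1 (6.68). FX40 B was low in the mean of group 4 (-2.86), and FX40 G in DM06550P3 (5.13) and DM10419P2 (-2.10). NP20 C was high in DM02085P1 (1.40) and DM05031P2 (1.57), and NP20 E in DM02665P1 (3.96). Acetone F was low in the mean of group 4 (0.50) and in DM10454P1 (-3.75). NP20 B was not picked in any set.

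Among juveniles, NP60 B was high in the mean of group 3 (2.84), DM02810P1 (3.50) and DM02665P1 (2.92), and acetone D in the mean of group 3 (0.47) and DM02810P1 (1.15). FV10 C was low in DM06550P3 (2.47), DM06652P1 (3.65), DM10419P2 (-0.071) and DM06878P3 (5.34), and FV10 D in DM06604P3 (3.70). FX40 C was high in DM06878P3 (5.83). NP20 C was low in DM05046P1 (0.42) and DM06982P2 (-2.77). NP20 A was low in DM06550P3 (5.59) and high in DM11927P1 (-1.61).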

How the results depend on the processing

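None of the 5 named probes that passed a test turned direction under any alternative run. Median differences of the members that lay near 0 did. That of adult FX40 was -0.11, but 0.33 with normexp, 0.31 with slide as a block, 0.23 without FX40 B and 0.03 without acetone G. Those of juvenile FV10, FX40 and NP60 (0.09, -0.04 and -0.14) ranged over -0.04 to 0.18, -0.09 to 0.09 and -0.25 to 0.01, and that of the interaction (0.08) over -0.05 to 0.46, while juvenile NP20 and stage kept their sign. The correlation of groups 1 and 2 on the 8 adult arrays was -0.55, but 0.07 without acetone G, and that of groups 1 and 3 on the 12 arrays was -0.82, but 0.66 without NP20 B. Of the 150 members, 93 were chosen again with slide as a second factor, 93 by the median absolute residual and 86 on all 20 adult arrays, and 92 (without NP20 B) to 146 when each array was left out. Of the 133 probes in 4 co-variation groups, 89 to 133 stayed grouped when each array was left out. The median SD on the 8 adult FX40 and acetone arrays was 0.977 to 1.31 by leaving out arrays and 1.80 with slide as a block, and that in juveniles 0.984 to 1.12. The median correlation between members was 0.0679 to 0.204 on the 8 arrays. In juveniles it was 0.0195 to 0.0448 by leaving out arrays, 0.0964 with normexp and 0.00208 with quantile normalization, and within group 4 it was 0.722 with normexp and 0.0161 with quantile normalization.

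Member counts by test changed as follows. Adult FX40 gave 30 with normexp (20.0%, against 23.9% of the 6268 and 44.2% of all probes) and 0 in every other alternative. Juvenile FV10 gave 2 with quantile normalization, with the deposited table and with the replicate block, and 1 to 13 when arrays were left out. Those 2 were 1.33% of the members, against 8.04%, 8.02% and 6.79% of all probes in these 3 settings. Over all probes the juvenile FV10 test passed 1015, or 1 with normexp and 1 with slide as a block. Juvenile FX40 gave 1 (0.667%) when only its 8 arrays were fitted, against 0.114% of all probes. The stage comparison gave 19 with normexp, 19 with the replicate block, 18 with all 40 arrays in the fit and 26 to 39 (without adult acetone G) by leaving out arrays. Over all probes it passed 3221, 573 with normexp and 1733 with the replicate block. The interaction gave 1 without adult acetone G. In adult FX40 and acetone the 3 same-letter correlations (0.23 to 0.35) lay above the different-letter ones (-0.29 to 0.22). The labels do not say what the letters stand for, and the block changed no call there (0 members). In juveniles same-letter pairs did not stand out, and between stages the letters were not checked. DM04369P3 missed the threshold with normexp (adjusted p = 0.148), slide as a block (0.0598), the replicate block (0.399) and all 40 arrays (0.0557). The causes were not tested. The alternatives were set with earlier results of these data known. The correlations between and within co-variation groups without NP20 B, and those without the 2 farthest arrays, singled out arrays by their values. Depth on arrays is signal over background: all members exceeded it on adult arrays by choice.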
